A study of Mus musculus with 24 samples.

Results

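The genes described here are 9 interferon-stimulated genes, Isg15, Usp18, Ifit1, Ifit3, Oasl1, Oasl2, Rsad2, Ifi27l2a and Irf7. They were chosen by name as classic targets of type I interferon, with earlier results of these data known. Each was found by its Ensembl identifier among the 54752 genes of the bone marrow table. RNA-seq was performed on bone marrow cells of 24 male mice of the C57BL/6 line, 6 in each of 4 groups, with a library per mouse. FL-WT and FL-KO mice spent 31 days on the International Space Station, having been 8 weeks old when they were transported before launch, and were sampled 2 days after landing. GC-WT and GC-KO mice were kept on the ground in housing that imitated the flight. WT mice were wild type and KO mice carried a germline knockout of Nfe2l2, the gene of the transcription factor Nrf2, so that every cell of the animal, and not marrow alone, lacked the factor. The labels name no further allele or agent. Flight mice were sampled in the United States and ground mice in Japan, so that spaceflight, landing and the place of sampling cannot be told apart.

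Type I interferons are secreted by infected or stimulated cells, in particular by plasmacytoid dendritic cells. They bind the receptor IFNAR1 and IFNAR2, whose kinases JAK1 and TYK2 activate transcription factors in the cell. A complex of these with IRF9 binds the interferon-stimulated response element in the promoters of their target genes. Bone marrow cells transcribe such genes at a low level without infection, and haematopoietic stem cells and myeloid progenitors respond to interferon.

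Promoters of the members are shown because the response element is the feature by which these genes are known. Of the 9 members, 7 had an entry among the RefSeq promoters of the GRCm38.p6 build, each covering 250 nt before to 50 nt after the transcription start. The core of the element was searched as GAAANNGAAA and its reverse complement TTTCNNTTTC, that is on both strands, and it was present in 4 of these 7 promoters. Across all 27025 genes with a promoter, 3.99% held it. The matches are in capitals below, with flanks of 20 nt, each written 5′ to 3′ on the strand of the gene.
Ifit1, chr19:34640765-34640833, + strand: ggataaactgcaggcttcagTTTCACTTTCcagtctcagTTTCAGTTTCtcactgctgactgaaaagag
Ifit3, chr19:34583353-34583436, + strand: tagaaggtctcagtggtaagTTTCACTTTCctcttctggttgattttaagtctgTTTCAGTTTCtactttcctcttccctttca
Isg15, chr4:156200855-156200916, − strand: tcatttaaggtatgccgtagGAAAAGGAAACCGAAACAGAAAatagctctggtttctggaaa
Rsad2, chr12:26456543-26456592, − strand: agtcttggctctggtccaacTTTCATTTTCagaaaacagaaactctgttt
Ifit1 and Ifit3 each held 2 separate matches, with the same letters in both genes. In Isg15 there were 3 matches that overlapped one another, in the other orientation, with first letters from 78 to 66 nt before the start. Rsad2 held 1 match, whose first letter was 120 nt before the start. The windows of Oasl1, Oasl2 and Irf7 held no match to these letters. Usp18 and Ifi27l2a had no entry. Among the other genes listed for the pathway, 20 of 46 promoters of type I interferon response genes, 11 of 17 of interferon-gamma-inducible genes, 11 of 20 of interferon ligands, 3 of 11 of sensors and 2 of 11 of receptor and JAK-STAT genes held the core.

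The values are TPM, an estimate of transcript abundance that is scaled for transcript length and to the same total in each library, so that the number of reads behind a value is unknown. All 9 members were among the 12373 genes tested, those that exceeded 1 TPM in 1 library or more. Nfe2l2 was at 17.05 to 26.06 TPM in GC-WT and 11.39 to 27.26 TPM in FL-WT mice, and at 3.6 to 7.18 TPM in GC-KO and 2.22 to 4.31 TPM in FL-KO mice, so that the genotypes did not overlap. Fold changes are differences of group means of log2(TPM + 1) from limma, with p-values adjusted over all tested genes. The median tested gene was lower in every comparison, at -0.24 for flight in the wild type (FL-WT vs. GC-WT), -0.29 for flight in the knockout (FL-KO vs. GC-KO), -0.22 for genotype on the ground (GC-KO vs. GC-WT) and -0.25 for genotype after flight (FL-KO vs. FL-WT) on the log2 scale. Size factors from median-of-ratios scaling moved with the groups, at 1.08 to 1.48 in GC-WT, 0.731 to 1.40 in FL-WT, 0.862 to 1.29 in GC-KO and 0.622 to 0.878 in FL-KO libraries. Changes of the members are therefore also given as differences from these medians, called relative to all genes, and after this scaling. In bulk RNA, fewer cells that express a gene and less RNA of it per cell cannot be told apart.

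The members fell into 3 ranges of level. Ifi27l2a, Rsad2 and Isg15 were the most abundant, with group means of 56.7 to 95.3, 40.3 to 80.0 and 29.7 to 68.6 TPM. Irf7 was intermediate, at 7.41 to 15.1 TPM. Oasl2, Ifit1, Usp18, Ifit3 and Oasl1 had group means between 0.667 TPM for Oasl1 in FL-KO and 4.40 TPM for Oasl2 in GC-WT mice. For these low genes the added 1 in log2(TPM + 1) makes a fold change smaller than the ratio of the TPM. Summed over the 9 members, the level was 168 to 228 TPM in GC-WT, 130 to 163 TPM in FL-WT, 249 to 296 TPM in GC-KO and 140 to 231 TPM in FL-KO mice. The sum was thus highest in GC-KO mice, which overlapped with no other group, and FL-WT mice lay below all GC-WT mice.

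**Figure D1:**
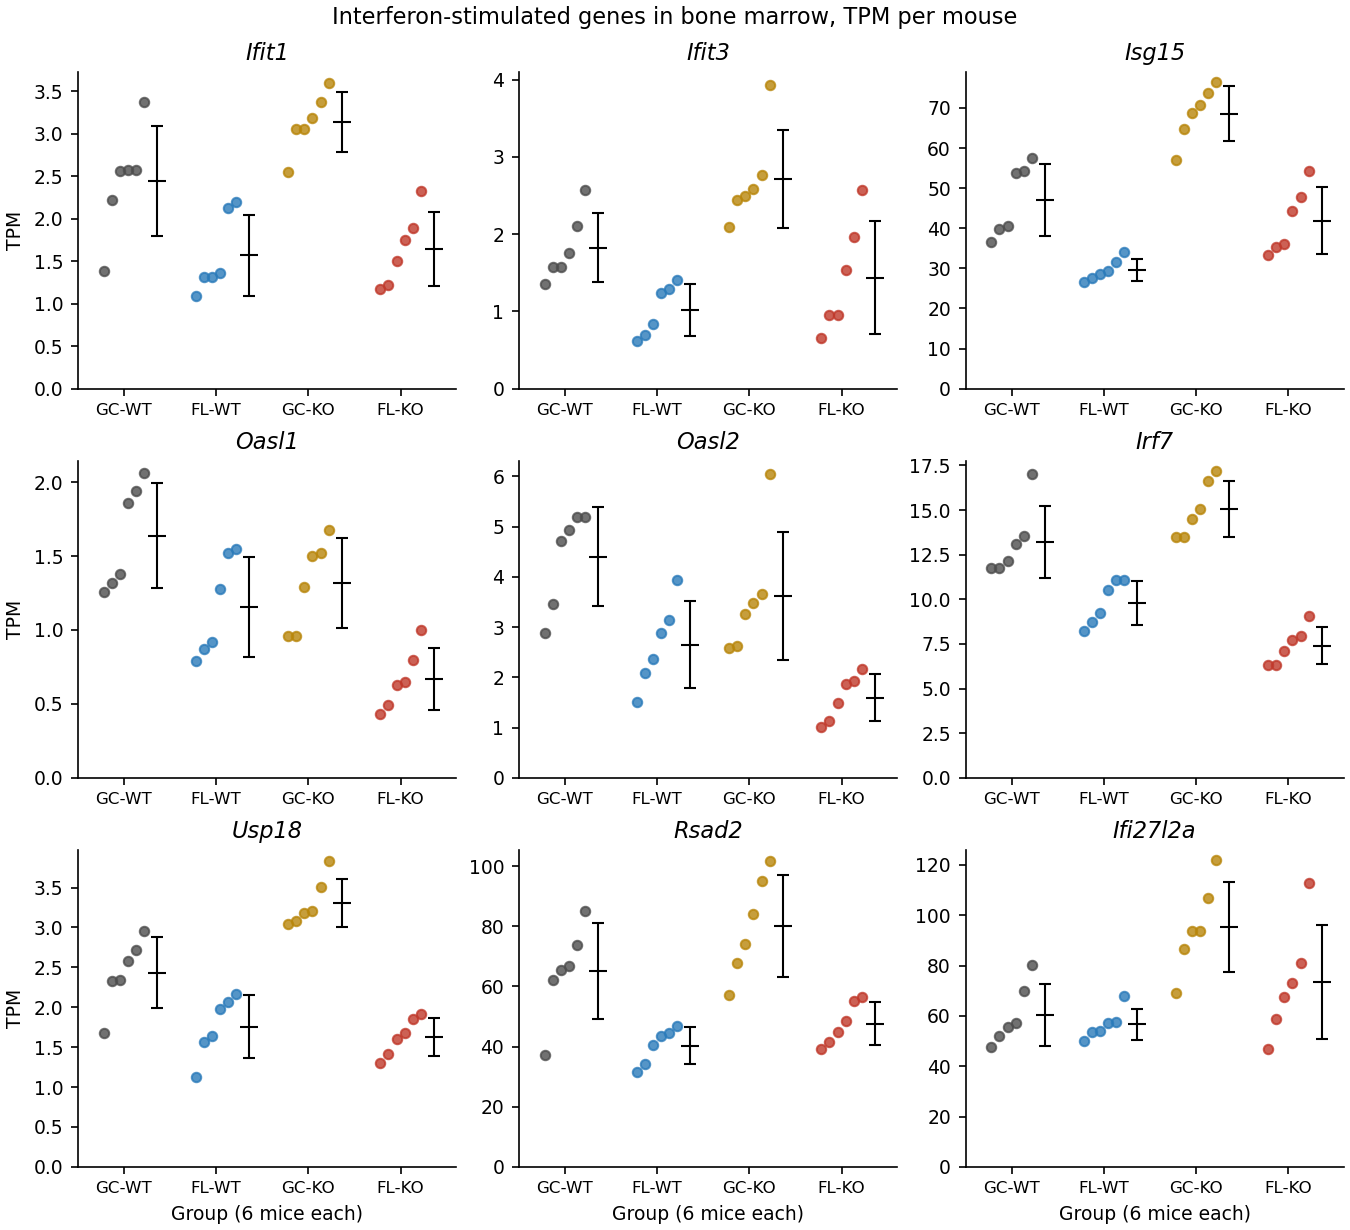
TPM of each of the 9 interferon-stimulated genes (y axes, linear from 0) in the 4 groups (x axes), with a point per mouse, sorted by value within a group, and the mean and SD of 6 mice beside them. The GC-KO points of Usp18 lie above all points of the other groups, and the FL-KO points of Irf7 lie below all GC-KO points.

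Isg15 and Usp18 form a pair of opposed activities. Isg15 (chr4:156199424-156200818, − strand) encodes a ubiquitin-like protein that is attached to other proteins, and Usp18 (chr6:121245906-121270917, + strand) encodes the protease that removes it and also dampens signalling at the receptor. Isg15 ranged from 36.5 to 57.42 TPM in GC-WT mice (median 47.2) and from 26.65 to 33.96 TPM in FL-WT mice (median 29.0). In the knockout it ranged from 57 to 76.4 TPM on the ground (median 69.8) and from 33.27 to 54.32 TPM after flight (median 40.2). Flight mice lay below ground mice of their genotype with no overlap in either case, and GC-KO mice exceeded the GC-WT mice except that the lowest GC-KO mouse was just under the highest GC-WT mouse. Usp18 ranged from 1.68 to 2.96 TPM in GC-WT (median 2.46) and from 1.12 to 2.17 TPM in FL-WT mice (median 1.81). It ranged from 3.04 to 3.83 TPM in GC-KO (median 3.19) and from 1.3 to 1.91 TPM in FL-KO mice (median 1.64). All GC-KO mice lay above the mice of the other 3 groups, which overlapped with one another for the most part.

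Ifit1 (chr19:34640871-34650009, + strand) encodes a protein that binds viral RNA with foreign 5′ ends, and Ifit3 (chr19:34583531-34588731, + strand) encodes a protein of the same family. Ifit1 ranged from 1.38 to 3.37 TPM in GC-WT (median 2.56) and from 1.09 to 2.2 TPM in FL-WT mice (median 1.34). It ranged from 2.55 to 3.6 TPM in GC-KO (median 3.12) and from 1.17 to 2.33 TPM in FL-KO mice (median 1.62). Knockout mice after flight lay below all knockout mice on the ground, while in the wild type the lowest ground mouse was among the flight mice. Ifit3 ranged from 1.35 to 2.57 TPM in GC-WT (median 1.66) and from 0.62 to 1.41 TPM in FL-WT mice (median 1.04). It ranged from 2.09 to 3.93 TPM in GC-KO (median 2.54) and from 0.65 to 2.57 TPM in FL-KO mice (median 1.25). Both pairs of groups overlapped, and FL-KO mice were the most spread, with a coefficient of variation of 50.6%. Ifit3 has a near-identical copy, Ifit3b, and how reads were divided between them is uncertain.

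Oasl1 (chr5:114923240-114937915, + strand) and Oasl2 (chr5:114896936-114912234, + strand) are neighbours that encode relatives of oligoadenylate synthetase, of which Oasl1 is known to limit translation of Irf7. Oasl1 ranged from 1.26 to 2.06 TPM in GC-WT (median 1.62) and from 0.79 to 1.55 TPM in FL-WT mice (median 1.10). It ranged from 0.96 to 1.68 TPM in GC-KO (median 1.40) and from 0.43 to 1 TPM in FL-KO mice (median 0.640). The genotypes overlapped on the ground, and FL-KO mice had the lowest median. Oasl2 ranged from 2.88 to 5.2 TPM in GC-WT (median 4.83) and from 1.5 to 3.93 TPM in FL-WT mice (median 2.63). It ranged from 2.59 to 6.05 TPM in GC-KO (median 3.38) and from 1.02 to 2.17 TPM in FL-KO mice (median 1.68). The order of both genes, with GC-WT highest by mean and FL-KO lowest, differed from that of the other 7 members, which had their highest mean in GC-KO mice.

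Rsad2 (chr12:26442746-26456452, − strand) encodes viperin, an antiviral enzyme of the endoplasmic reticulum. It ranged from 37.23 to 85.08 TPM in GC-WT (median 66.2) and from 31.57 to 46.89 TPM in FL-WT mice (median 42.1). In the knockout it ranged from 57.18 to 101.77 TPM on the ground (median 79.1) and from 39.23 to 56.45 TPM after flight (median 46.7). A single GC-WT mouse fell within the range of FL-WT mice, and the knockout groups did not overlap. Ifi27l2a (chr12:103442167-103443680, − strand), a small membrane protein gene and the shortest of the members, ranged from 47.49 to 80.29 TPM in GC-WT (median 56.4) and from 50.12 to 67.83 TPM in FL-WT mice (median 55.5). It ranged from 68.96 to 122.04 TPM in GC-KO (median 93.8) and from 46.93 to 112.99 TPM in FL-KO mice (median 70.3). FL-WT mice lay wholly inside the range of GC-WT mice, and the highest FL-KO mouse exceeded all but 1 GC-KO mouse.

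Irf7 (chr7:141262706-141266481, − strand) encodes the transcription factor that amplifies interferon-alpha production. It ranged from 11.75 to 17 TPM in GC-WT (median 12.6) and from 8.24 to 11.09 TPM in FL-WT mice (median 9.86). In GC-KO mice it ranged from 13.48 to 17.19 TPM (median 14.8) and in FL-KO mice from 6.31 to 9.06 TPM (median 7.42). Flight mice lay below ground mice in both genotypes, and the genotypes overlapped both on the ground and after flight.

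Comparison of FL-WT with GC-WT mice asked how the members differed after flight when Nrf2 was present. On the scale of log2(TPM + 1), Isg15, Rsad2 and Oasl2 were lower after flight by the most, with 6 mice in each group. Their log2 fold changes were -0.63 ± 0.13 (SE, limma adjusted p = 0.00117), -0.65 ± 0.16 (adjusted p = 0.00539) and -0.57 ± 0.17 (adjusted p = 0.016). Ifit3 (-0.49), Ifit1 (-0.42), Irf7 (-0.39), Usp18 (-0.32) and Oasl1 (-0.29) were also lower. The order of the members depends on the added value. With 0.1 added in place of 1, Ifit3 was at -0.81, Oasl2 at -0.74, Rsad2 at -0.66 and Isg15 at -0.65. Ifi27l2a did not pass the test, with a log2 fold change of -0.07 and a 95% interval of -0.41 to 0.26 (limma adjusted p = 0.738). Thus 8 of 9 members were lower and 0 were higher at an adjusted p under 0.1. Of all tested genes, 39.0% were lower and 0.994% higher by this criterion. The members were thus called lower more often than the background, though much of the table moved the same way. They were chosen with earlier results of these data known, so that a count above the background, here or below, is no test. All FL-WT mice lay below all GC-WT mice for Isg15 and Irf7, against 4.19% of all tested genes. The exact two-sided permutation test of ranks, adjusted over all genes, was passed by 5 of 9 members and by 15.5% of all tested genes in either direction.

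The fall in wild-type mice depended on the scale. The median of the members was -0.42 and that of all genes -0.24, so that relative to all genes the members were at -0.18. After median-of-ratios scaling 0 of 9 members passed in limma, with log2 fold changes between -0.31 for Oasl2 and Rsad2 and 0.27 for Ifi27l2a and a median of -0.18, while 15.9% of all genes were lower and 17.4% higher. With quantile normalization 2 were lower, against 14.8% of all genes lower and 15.0% higher. Oasl1 lost its call when any of GC-WT mice 03, 06 and 08 or FL-WT mice 05, 06 and 10 was left out, with log2 fold changes of -0.27 to -0.24 and limma adjusted p between 0.106 and 0.17.

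Comparison of FL-KO with GC-KO mice asked the same in the absence of Nrf2. All 9 members were lower after flight. On the scale of log2(TPM + 1), Irf7 was lower by the most, with a log2 fold change of -0.94 ± 0.11 (SE, limma adjusted p = 1.07e-05). This value ranked 372 from the lowest of 12373 genes. Irf7 was followed by Oasl2 at -0.81 ± 0.17, by Isg15, Usp18 and Rsad2 at -0.72 each, and by Ifit1 at -0.66 and Ifit3 at -0.65. Oasl1 at -0.47 and Ifi27l2a at -0.41 changed the least on this scale. For Oasl1 the added 1 shrinks the value, as its mean was 1.32 TPM in GC-KO and 0.667 TPM in FL-KO mice. Of all tested genes, 53.1% were lower and 0.299% higher, so that the members again exceeded a large background. FL-KO mice did not overlap with GC-KO mice for 6 of the 9 members, Isg15, Usp18, Ifit1, Oasl2, Rsad2 and Irf7, against 18.4% of all tested genes. The exact permutation test was passed by 8 of 9 members and by 54.9% of all tested genes.

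In the knockout the fall exceeded the shift of the table for most members. The median of the members was -0.72, and -0.43 relative to all genes. After median-of-ratios scaling 6 members remained lower, namely Irf7 (-0.55 ± 0.12, SE, limma adjusted p = 0.00154), Oasl2 (-0.53), Usp18 (-0.43 ± 0.08, adjusted p = 4.51e-04), Ifit3 (-0.39), Ifit1 (-0.38) and Oasl1 (-0.28). Isg15 and Rsad2, both at -0.29, did not pass, and Ifi27l2a was at 0.03, with 21.6% of all genes lower and 18.1% higher. Quantile normalization left 8 members lower, against 18.7% of all genes lower and 21.7% higher. Ifi27l2a lost its call when GC-KO mouse 12 (-0.33), FL-KO mouse 01 (-0.29) or FL-KO mouse 02 (-0.35) was left out, with limma adjusted p of 0.126, 0.153 and 0.116.

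**Figure D2:**
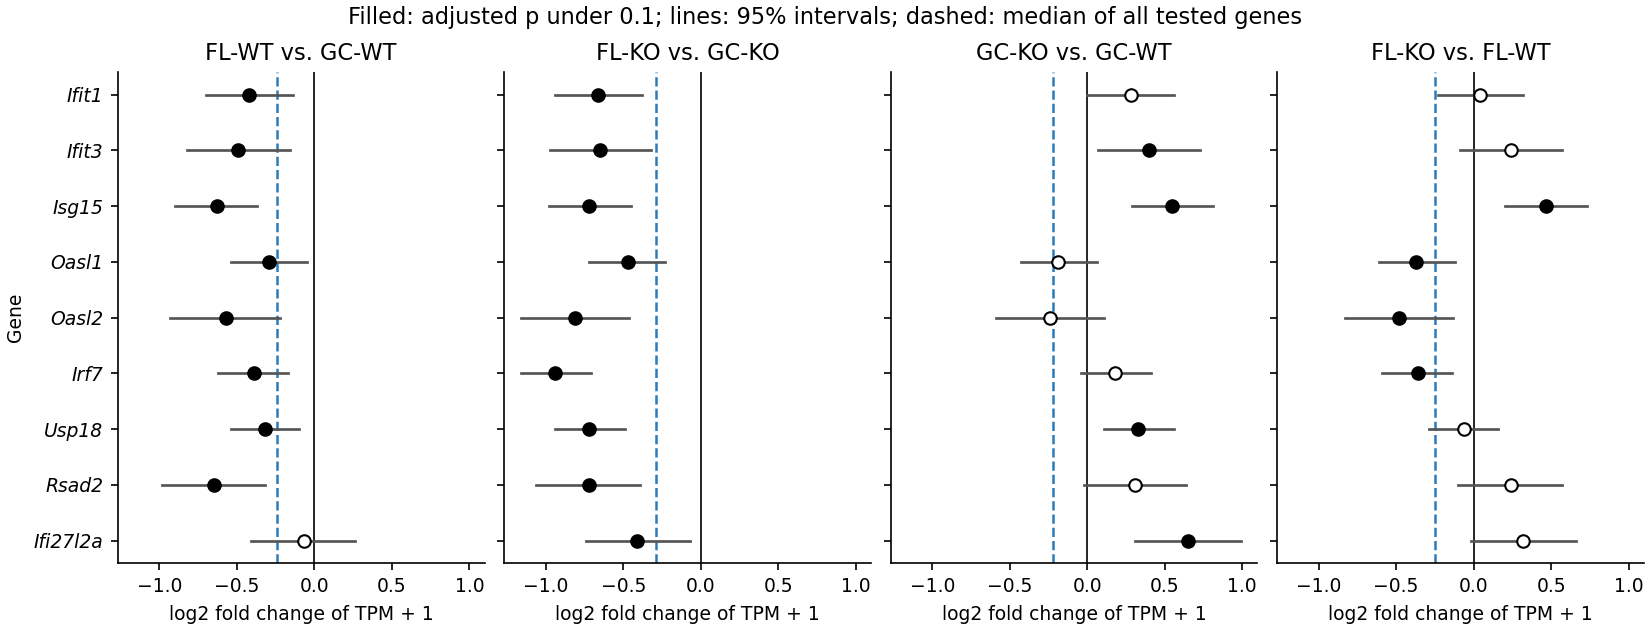
Log2 fold change of TPM + 1 (x axes) of each member (y axis) in the 4 comparisons, with 95% intervals as lines, filled circles for an adjusted p under 0.1 and the median of all tested genes as a dashed line. All members lie left of the dashed line in FL-KO vs. GC-KO, and 8 of 9 lie right of it in GC-KO vs. GC-WT.

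Whether the flight comparison differed between the 2 genotypes was tested as an interaction. All 9 members had a negative interaction, that is a larger fall in the knockout, as did 65.8% of all tested genes, whose median was -0.06 against -0.23 for the members. With either scaling, median-of-ratios or quantile, 7 of 9 were negative. In limma 0 members passed, and 2 of them, Irf7 and Usp18, were at an unadjusted p under 0.05, against 3.46% of all tested genes. Irf7 was at -0.55 ± 0.16 (SE, limma adjusted p = 0.584) and Usp18 at -0.40 ± 0.15 (adjusted p = 1). Of all genes 0.0162%, or 2 genes, passed. A difference between genotypes in the response of the members was therefore not shown. The intervals of the other members ranged from -0.81 at the lowest for Ifi27l2a to 0.40 at the highest for Rsad2. The flight comparisons and the genotype comparisons share their groups, so that their values are not independent of one another.

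In GC-KO vs. GC-WT, which asked how the members depended on Nrf2 on the ground, 4 members were higher and the others did not pass, while 77.1% of all tested genes had a negative fold change. Ifi27l2a (0.65 ± 0.16, SE, limma adjusted p = 0.00293), Isg15 (0.55 ± 0.13, adjusted p = 0.00177), Ifit3 (0.40 ± 0.16, adjusted p = 0.0513) and Usp18 (0.33 ± 0.11, adjusted p = 0.0171) were higher in the knockout. Rsad2 (0.31), Ifit1 (0.28) and Irf7 (0.18) had positive values that did not pass, and Oasl1 (-0.19) and Oasl2 (-0.24) negative values that did not pass. Thus 4 of 9 members were higher and 0 lower, against 3.13% of all genes higher and 42.9% lower. All GC-KO mice lay above all GC-WT mice for Usp18, as for 0.218% of all tested genes. The exact permutation test was passed by 4 of 9 members, a share near the 44.4% of all tested genes that passed it in either direction. These 4 were the members named as higher.

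Relative to all genes the members were at a median of 0.53 in this comparison, against 0.31 as deposited. After median-of-ratios scaling 7 of 9 were higher, with Ifi27l2a at 1.0 ± 0.20 (SE, limma adjusted p = 5.02e-04), Isg15 at 0.90 ± 0.13 (adjusted p = 2.02e-04), Rsad2 at 0.66, Ifit3 at 0.61, Usp18 at 0.58, Ifit1 at 0.52 and Irf7 at 0.51. Oasl1 and Oasl2 were at 0.02 and 0.04. On that scale 29.8% of all genes were higher and 27.9% lower, and quantile normalization also left 7 members higher, with 30.1% of all genes higher and 28.3% lower. Single libraries changed some calls on the deposited scale. Without GC-WT mouse 06, Ifit1 (0.36, limma adjusted p = 0.0488), Rsad2 (0.39, adjusted p = 0.0679) and Irf7 (0.25, adjusted p = 0.075) passed and Ifit3 (0.35, adjusted p = 0.115) did not. Ifit3 was also not past the threshold without GC-KO mouse 12 (0.31, limma adjusted p = 0.132), where Oasl2 was lower (-0.37, adjusted p = 0.0694). Ifit1 passed without GC-KO mouse 02 (0.33, limma adjusted p = 0.083) and Rsad2 without GC-KO mouse 04 (0.40, adjusted p = 0.0654).

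In FL-KO vs. FL-WT, the same genotypes after flight, the members divided. Isg15 was higher in the knockout, at 0.47 ± 0.13 (SE, limma adjusted p = 0.00431), while Oasl2 (-0.48 ± 0.17, adjusted p = 0.0246), Oasl1 (-0.37 ± 0.12, adjusted p = 0.0155) and Irf7 (-0.36 ± 0.11, adjusted p = 0.0083) were lower. Ifi27l2a (0.32), Rsad2 (0.24), Ifit3 (0.24), Ifit1 (0.04) and Usp18 (-0.06) did not pass. Of all tested genes 47.2% were lower and 1.91% higher by this criterion, and 3 of 9 members lower is near that share. No member had all FL-KO mice above all FL-WT mice, as 0.307% of all genes did, and the exact permutation test was passed by 4 of 9 members, near the 42.0% of all tested genes. The median of the members was 0.04, and 0.30 relative to all genes.

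These calls also moved with the scale. After median-of-ratios scaling 6 members were higher, namely Isg15 (0.90), Ifi27l2a (0.76), Rsad2 (0.67), Ifit3 (0.50), Ifit1 (0.33) and Usp18 (0.23), and 0 were lower, with 35.2% of all genes higher and 31.2% lower. Irf7 was at 0.03, Oasl1 at -0.16 and Oasl2 at -0.19, none past the threshold. Quantile normalization likewise gave 6 higher and 0 lower, with 38.2% of all genes higher and 29.6% lower. On the deposited scale Ifit3 passed without FL-KO mouse 01 (0.34, limma adjusted p = 0.0923). Ifi27l2a passed without FL-KO mouse 01 (0.44, limma adjusted p = 0.0301), FL-KO mouse 02 (0.37, adjusted p = 0.0909) or FL-WT mouse 10 (0.37, adjusted p = 0.086). The number of members higher in the knockout was then 3, 2 and 2 in place of 1.

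**Figure D3:**
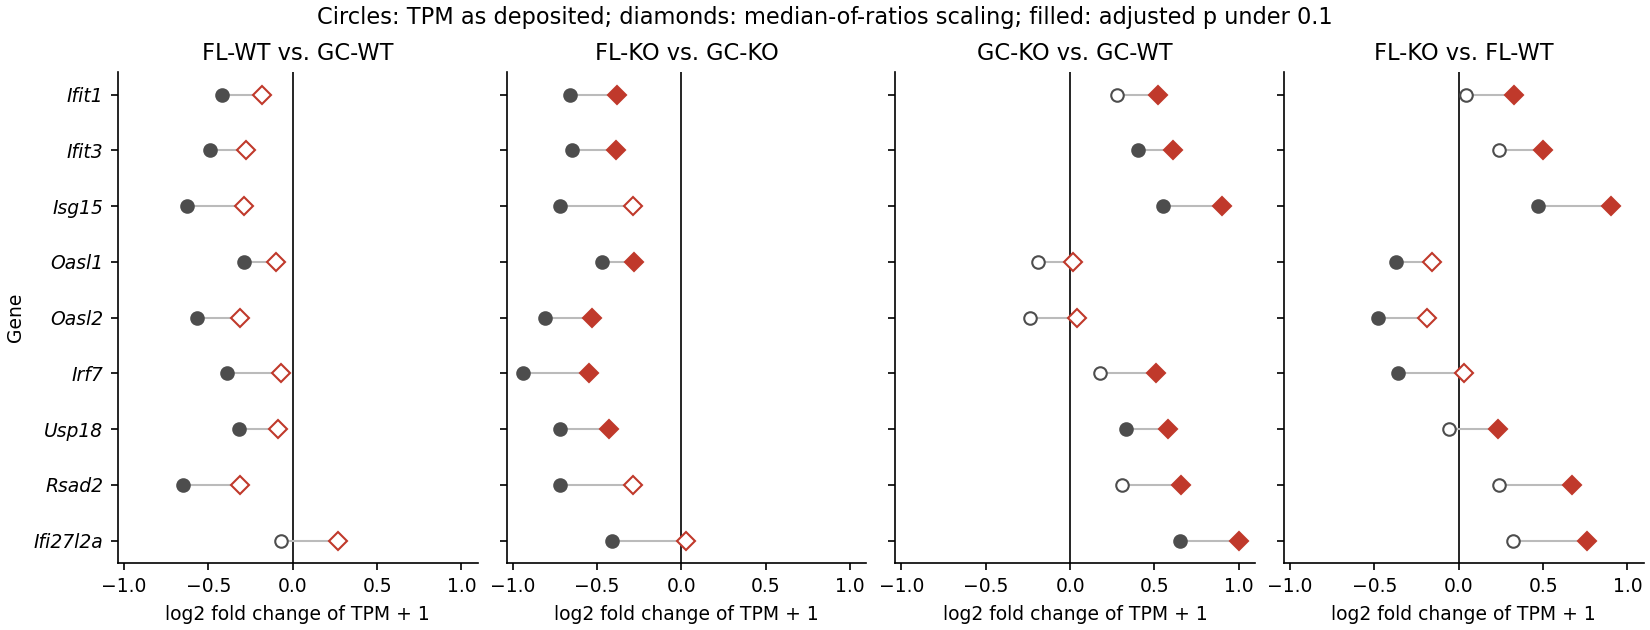
Log2 fold change of TPM + 1 (x axes) of each member (y axis) in the 4 comparisons, for TPM as deposited (circles) and after median-of-ratios scaling (diamonds), filled for an adjusted p under 0.1. Each diamond lies right of its circle, which leaves 0 members filled in FL-WT vs. GC-WT and 7 filled in GC-KO vs. GC-WT.

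When a fold change of 2 or more was also required, 0 of 9 members were DEGs in any comparison by limma on log2(TPM + 1). Of all tested genes, 1.0% were DEGs for flight in the wild type, 2.13% for flight in the knockout, 3.17% for genotype on the ground and 8.45% for genotype after flight. At an unadjusted p under 0.05, 8, 9, 5 and 4 members passed in these comparisons, against 42.8%, 52.5%, 46.7% and 49.2% of all tested genes. Both genotype counts are near these shares, which take no account of direction. On the ground the 5 members were all higher, whereas 77.1% of all tested genes had a negative fold change.

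Members deviated together within groups to a varying degree. Across 24 libraries, the deviations of log2(TPM + 1) from the group mean correlated at a median r of 0.47 over the 36 pairs of members, from -0.25 for Rsad2 with Ifi27l2a to 0.76 for Ifit1 with Usp18. After median-of-ratios scaling the median was 0.36, and Ifit1 with Usp18 remained the highest pair at 0.78. Oasl1 and Oasl2 correlated at 0.73 as deposited and 0.61 after scaling. These values share each library's total. Pairs of other genes were not compared, so that a correlation particular to the members was not shown. The genes whose level followed the mean standardized level of the members most closely, among 5021 genes whose mean was 5 TPM or more, were Irgm1 (Pearson r = 0.92 over 24 libraries), Mxd3 (0.88), Slc30a9 (0.88), Stradb (0.87) and Rnf139 (0.87). After median-of-ratios scaling they were Irf9 (0.85), Irgm1 (0.84), Mxd3 (0.79), Slc30a9 (0.79) and Scoc (0.78). Unlike the correlations of the pairs, these were taken without removing group means, so that they keep the differences between groups. Irgm1, an interferon-inducible GTPase, and Irf9, the DNA-binding subunit of the signalling complex, belong to the pathway. The other genes that followed the members are on none of the lists used here.

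The ligands themselves were almost absent. Of 21 interferon genes, 15 were listed at 0 TPM in every library and none reached the level for testing. Ifnb1 was listed above 0 in the FL-KO group alone, at up to 0.04 TPM. Ifng, the gene of type II interferon, had group means of 0.0883 to 0.140 TPM with overlapping ranges. At these levels and unknown depth, a difference in the ligands was not detectable.

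The receptor and JAK-STAT genes, which carry the signal to the members, were lower or did not pass in every comparison on the deposited scale. Of 12 genes, all tested, 5 were lower after flight in the wild type and 9 in the knockout. Between genotypes 8 were lower in the knockout on the ground and 9 after flight, and 0 were higher in any comparison. The count in the wild type is near the 39.0% of all genes that were lower. The other counts exceed the 53.1%, 42.9% and 47.2% lower in their comparisons. After median-of-ratios scaling the counts were 1 lower and 2 higher for flight in the wild type, and 2 and 2 in the knockout. For genotype they were 5 and 3 on the ground and 6 and 3 after flight. In the same order, 15.9%, 21.6%, 27.9% and 31.2% of all genes were lower and 17.4%, 18.1%, 29.8% and 35.2% higher. The genotype counts of lower genes exceed their shares, and the other counts are near or below theirs. The receptor genes Ifnar1 (-0.35) and Ifnar2 (-0.38), the kinase genes Jak1 (-0.75) and Tyk2 (-0.68) and the transcription factor gene Stat2 (-0.48) were lower in GC-KO vs. GC-WT, whereas Irf9 (-0.13) did not pass. After scaling, Ifnar1 (-0.03) and Ifnar2 (-0.04) no longer passed, Jak1 (-0.40), Tyk2 (-0.39) and Stat2 (-0.20) were still lower and Irf9 was higher (0.20, limma adjusted p = 0.0426). With flight, Stat2 was lower on both scales in both genotypes, at -0.55 in the wild type and -0.61 in the knockout as deposited and at -0.28 and -0.33 after scaling.

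Sensors and adaptors, which detect viral nucleic acids and start interferon transcription, had 15 of 16 genes tested. After flight 5 were lower in the wild type and 11 in the knockout, and in the knockout 10 were lower on the ground and 11 after flight, with 0 higher in any of them. The count in the wild type does not exceed the 39.0% of all genes that were lower. The other counts exceed the 53.1%, 42.9% and 47.2% lower in their comparisons. After median-of-ratios scaling 3 were lower and 2 higher for flight in the wild type, and 4 lower and 0 higher in the knockout. In each genotype comparison 10 were lower and 3 higher. On that scale 15.9% and 21.6% of all genes were lower and 17.4% and 18.1% higher for flight. For genotype 27.9% and 31.2% were lower and 29.8% and 35.2% higher. The counts of 10 lower exceed their shares, and the counts of 3 higher are below theirs. Tlr9, the receptor of unmethylated DNA, was lower in GC-KO vs. GC-WT by the most of these genes, at -1.22 (limma adjusted p = 4.11e-04), with a mean of 4.43 TPM in GC-WT and 1.38 TPM in GC-KO mice. Ifih1, the RNA sensor MDA5 and itself inducible by interferon, was lower with flight at -0.55 in the wild type and -0.57 in the knockout, and remained lower after scaling at -0.30 and -0.29.

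Among 58 further type I interferon response genes, 50 were tested. With flight, 27 were lower in the wild type and 39 in the knockout, and 0 were higher. Of all tested genes 39.0% and 53.1% were lower. The medians of this list were -0.32 and -0.40, which is -0.08 and -0.11 relative to all genes. They were closer to the table than the members at -0.18 and -0.43, a difference that was not tested. Oas3 was lower in FL-KO vs. GC-KO at -1.30 (limma adjusted p = 2.59e-05), Pml at -1.13 and Uba7, the enzyme that activates ISG15 for attachment, at -1.02, the only 3 of these genes that reached a fold change of 2 there. After scaling, 13 were lower and 8 higher in the wild type, and 15 lower and 4 higher in the knockout. Of all genes 15.9% were lower and 17.4% higher in the wild type on that scale, and 21.6% and 18.1% in the knockout.

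Between genotypes these genes divided. On the ground 19 were lower and 6 higher in the knockout, and after flight 22 were lower and 2 higher. Of all tested genes 42.9% were lower and 3.13% higher on the ground, and 47.2% and 1.91% after flight. The lower counts among the 50 are near these shares, whereas 6 higher on the ground exceeds its share. Relative to all genes the medians of this list were 0.11 and 0.13. Higher in GC-KO mice were Isg20 (0.46), Oas1a (0.45), Rtp4 (0.41), Ifi27 (0.32), Ms4a4c (0.32) and Ifit3b (0.26), and higher in FL-KO mice were Isg20 (0.46) and Xaf1 (0.32). Isg20, a ribonuclease gene, was more abundant than any member, at a mean of 142 TPM in GC-WT and 191 TPM in GC-KO mice. Lower in GC-KO mice were Lgals3bp (-0.98), Znfx1 (-0.97), Ly6e (-0.96) and Lgals9 (-0.92) among others. Cmpk2, the gene next to Rsad2 and usually induced with it, was at -0.46 (limma adjusted p = 0.0277) where Rsad2 was at 0.31 (adjusted p = 0.137). Ifit2, next to Ifit3, was at 0.02, Mx1 at -0.10, Oas2 at -0.12 and Bst2 at -0.01, and none of these 4 passed. After scaling the counts turned to 9 lower and 22 higher on the ground and to 14 lower and 23 higher after flight. Of all genes 27.9% were lower and 29.8% higher on the ground on that scale, and 31.2% and 35.2% after flight.

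Of 23 genes known mainly as targets of interferon gamma, 21 were tested. With flight, 12 were lower in the wild type and 12 in the knockout, and 0 were higher, with medians of -0.31 and -0.30 that were at -0.07 and -0.01 relative to all genes. In the knockout 5 were lower and 0 higher on the ground, and 7 were lower and 1, Tgtp2 (0.27), was higher after flight. Of all tested genes 39.0% and 53.1% were lower for flight, and 42.9% and 47.2% for genotype. The flight count of 12 of 21 exceeds its share in the wild type and is near it in the knockout. Both genotype counts of lower genes are below their shares. Irf1, the transcription factor of the interferon gamma response, was lower in GC-KO vs. GC-WT at -0.60 (limma adjusted p = 0.00519). Tap1, a peptide transporter gene, was lower in FL-KO vs. FL-WT at -1.12 (limma adjusted p = 9.02e-06). After median-of-ratios scaling the flight counts were 3 lower and 1 higher in the wild type and 1 and 1 in the knockout, and the genotype counts turned to 4 lower and 5 higher on the ground and 3 lower and 9 higher after flight. Of all genes 15.9% and 21.6% were lower and 17.4% and 18.1% higher for flight on that scale. For genotype 27.9% and 31.2% were lower and 29.8% and 35.2% higher. Socs1 was counted in this list and among the receptor and JAK-STAT genes.

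**Figure D4:**
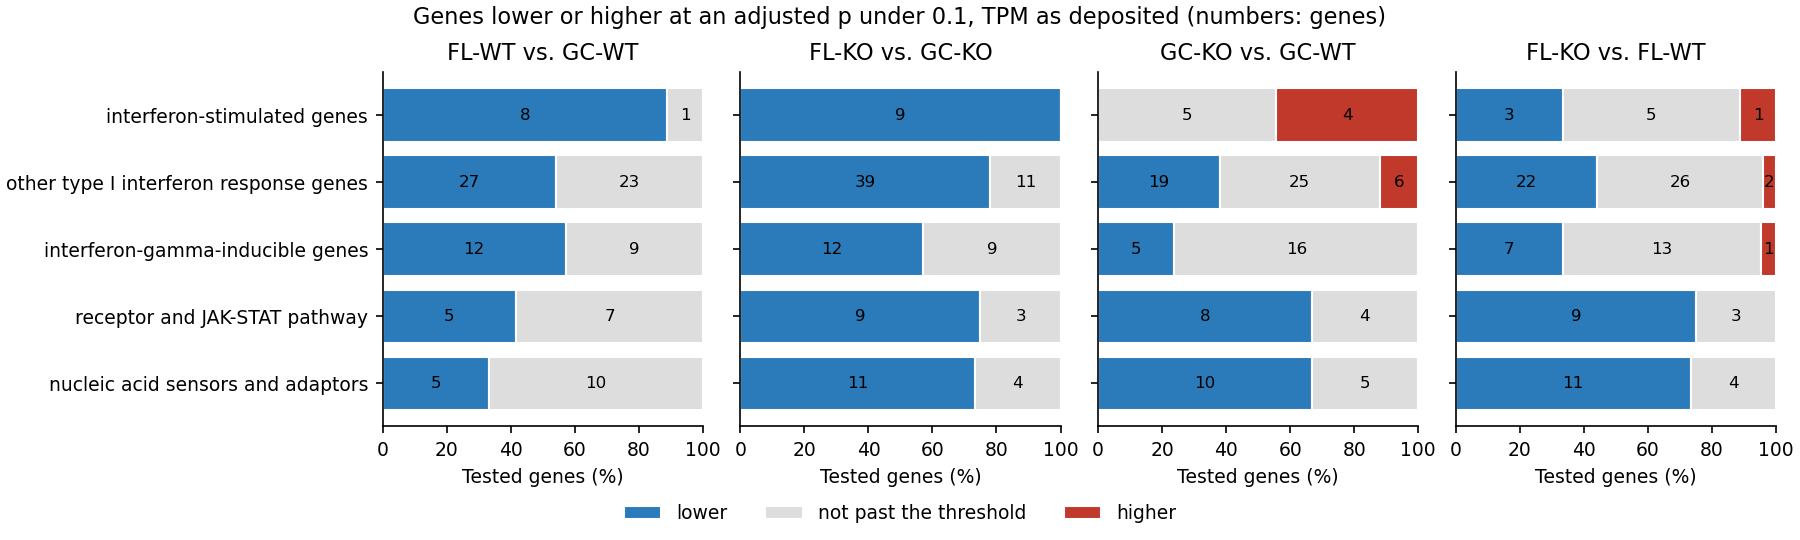
Share of tested genes (x axes, percent) that were lower, higher or not past an adjusted p of 0.1 in each of 5 lists of the pathway (y axis) in the 4 comparisons, for TPM as deposited, with the number of genes in each bar. The 9 members are the top bar, which alone has higher but no lower genes in GC-KO vs. GC-WT.

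Marker genes of marrow cell types were counted in the same 4 comparisons, flight in the wild type and knockout, then genotype on the ground and after flight. Of all tested genes 39.0%, 53.1%, 42.9% and 47.2% were lower and 0.994%, 0.299%, 3.13% and 1.91% higher as deposited. After median-of-ratios scaling 15.9%, 21.6%, 27.9% and 31.2% were lower and 17.4%, 18.1%, 29.8% and 35.2% higher. Marker counts here and in the next paragraphs that are near or below these shares are not results about a cell type. The 12 markers of plasmacytoid dendritic cells, the main source of type I interferon, summed to 165 to 227 TPM in GC-WT, 114 to 212 TPM in FL-WT, 142 to 196 TPM in GC-KO and 94.9 to 130 TPM in FL-KO mice. Ly6d, Irf8, Spib and Bst2 made up most of these sums, at GC-WT means of 88.0, 31.5, 27.1 and 22.0 TPM. Siglech was at 9.33 TPM there, so that the sums follow a few genes more than the list. For flight 3 of the 12 markers were lower in the wild type and 9 in the knockout. For genotype 5 were lower and 1 higher both on the ground and after flight. The median of the markers relative to all genes stayed between -0.03 and 0.07. After median-of-ratios scaling 2 and 1 were lower for flight in the wild type and the knockout, with 0 higher, and for genotype 5 were lower and 4 higher on the ground and 4 lower and 5 higher after flight. Siglech, a defining marker of these cells, did not pass in any comparison, at -0.30, -0.22, -0.17 and -0.09. The 9 B lineage markers were all lower with flight in both genotypes, and summed to 215 to 311 TPM in GC-WT, 97.6 to 252 TPM in FL-WT, 137 to 206 TPM in GC-KO and 78.2 to 129 TPM in FL-KO mice, with 6 lower in each genotype comparison. After scaling 7, 6, 6 and 3 of them were lower in the 4 comparisons, and 1 was higher for genotype after flight.

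The 8 mature neutrophil markers summed to 1950 to 2660 TPM in GC-WT, 2170 to 3820 TPM in FL-WT, 1660 to 2230 TPM in GC-KO and 2190 to 2990 TPM in FL-KO mice, with 3 higher and 0 lower for flight in the wild type. Retnlg made up most of these sums, at means of 1660, 2530, 1410 and 2050 TPM in the same order of groups. For flight in the knockout 2 of the 8 markers were lower and 1 higher. For genotype 4 were lower and 1 higher on the ground, and 7 lower after flight. After scaling 0, 2, 3 and 4 were lower and 6, 5, 2 and 1 higher. The 8 monocyte markers summed to 424 to 576 TPM in GC-WT, 385 to 699 TPM in FL-WT, 314 to 529 TPM in GC-KO and 292 to 419 TPM in FL-KO mice, with 0, 3, 5 and 6 lower in the 4 comparisons in this order and 0 higher. Most of the monocyte sums came from Ly6c2, at means of 370, 419, 290 and 254 TPM in these groups. After scaling 0, 1, 4 and 5 of the monocyte markers were lower and 3, 3, 1 and 1 higher. Of 10 macrophage markers, with sums in the same groups of 95.1 to 160, 75.5 to 141, 93.7 to 120 and 54.8 to 95.6 TPM, 3, 9, 2 and 7 were lower and 0 higher. After scaling 0, 2, 0 and 1 macrophage markers were lower and 2, 0, 3 and 0 higher.

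Of 10 T and NK markers, with sums in the same groups of 45.7 to 70.1, 41.4 to 80.0, 41.3 to 64.7 and 37.5 to 59.6 TPM, 1, 1, 3 and 6 were lower, and 1 was higher in GC-KO vs. GC-WT. After scaling 0, 0, 2 and 2 were lower and 5, 5, 3 and 3 higher. The 9 erythroid markers, with globin genes, took 86900 to 204000 TPM in GC-WT, 145000 to 207000 TPM in FL-WT, 166000 to 245000 TPM in GC-KO and 153000 to 222000 TPM in FL-KO mice, and 4, 5, 3 and 3 of them were lower and 0, 0, 3 and 2 higher. After scaling 4, 4, 0 and 3 erythroid markers were lower and 4, 1, 6 and 6 higher. Bst2 was counted among the plasmacytoid dendritic cell markers and among the type I interferon response genes. No marker of these 7 lists was at 0 in every library. The part of cell composition in the values of the members was not tested.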

How the data were processed

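RNA was isolated from cryopreserved bone marrow cells, and directional libraries were prepared with the MGIEasy kit and sequenced on a DNBSEQ-G400. According to the methods and the submitters' processing notes, STAR 2.6.1 and the mm10 genome were used for mapping, and the authors obtained TPM from RSEM 1.3.1. The deposited table holds TPM, whose sums per library were 999999.5 to 1000001.1, and read depth is unknown. The gene annotation of the authors is not given in the sources used here. Symbols and coordinates were taken from GENCODE vM21 on GRCm38, in which 54723 identifiers matched.

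Groups were taken from the sample labels. The 12373 genes that exceeded 1 TPM in 1 library or more entered limma 3.58.1 (R 4.3.3) as log2(TPM + 1). A single model of the 4 group means was fitted to the 24 libraries, and Benjamini-Hochberg adjustment covered all tested genes. DEGs, as in the study, needed an adjusted p below 0.1 together with a 2-fold change. Counts with no minimum fold change were added after seeing that 0 members reached a fold change of 2. The exact permutation test was of rank sums, two-sided, 6 against 6 mice, and adjusted over all tested genes.

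The members and the gene lists were chosen with earlier results of these data known, and no list was tested as a set. All 9 members are named, and of the other lists genes that passed in a comparison and a fixed few. The 7 marker lists were plasmacytoid dendritic cell, monocyte, macrophage, mature neutrophil, B lineage, T and NK, and erythroid. Alternatives were a pseudocount of 0.1, other filters, median-of-ratios scaling, quantile normalization, removal of the trend with GC content and length, leaving out 5 small RNAs, limma-trend, a stricter adjusted p of 0.05, fits of only the groups compared, a block for mouse number, and leaving out each library. Promoters were read with Python 3.11.15 and pandas 2.3.3, and figures drawn with matplotlib 3.10.9. The fit was tested on simulated data.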

Additional observations from a re-analysis of the deposited data

Results flagged for a closer look

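In 36 groups of 6 mice (9 members in 4 groups), a mouse far from the others of its group was found 3 times by Dixon's test, which chance gives in about 1 in 20 groups. GC-KO mouse 12 had the highest Ifit3, at 3.93 TPM, with a gap to the next mouse of 0.630 of the range of the group. The same mouse had the highest Oasl2, at 6.05 TPM, with a gap of 0.691. GC-WT mouse 06 had the highest Irf7, at 17 TPM, with a gap of 0.661.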

How the results depend on the processing

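Lower calls in FL-WT vs. GC-WT, 8 of 9 members as deposited, were 0 with median-of-ratios scaling, 2 with quantile normalization and 3 with the trend of GC content and length removed, and 7 to 8 with each library left out. Higher calls in GC-KO vs. GC-WT, 4 as deposited, were 7, 7 and 8 under these 3 settings and 3 to 6 with each library left out, and lower calls there were 0 to 1 with each library left out and 1 without 5 small RNAs. In FL-KO vs. FL-WT, 3 lower calls became 0 under each of the 3 settings and stayed at 3 with each library left out, and 1 higher call became 6, 6 and 7, 3 without 5 small RNAs, and 1 to 3 with each library left out. Lower calls in FL-KO vs. GC-KO stayed at 8 to 9 with each library left out. At a fold change of at least 2, the 0 members called became 2 in FL-KO vs. GC-KO with a pseudocount of 0.1 and 1 in GC-KO vs. GC-WT with median-of-ratios scaling, and with no minimum fold change 8, 9, 4 and 4 in the 4 comparisons. Other genes of the pathway lists at that fold change went from 3 to 0 and 0 in FL-KO vs. GC-KO, from 1 to 0 with median-of-ratios scaling in GC-KO vs. GC-WT, and from 11 to 2 and 2 in FL-KO vs. FL-WT, where a pair of values is for those scalings in the order above. Shares of all genes were counted only for TPM as deposited and, with no minimum fold change, for those scalings. Counts under the other settings cannot be set against a background. The cause of the shifts between settings was not tested.

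Single members changed sign as follows, with log2 fold changes for median-of-ratios scaling, quantile normalization and removal of the GC content and length trend in this order where 3 are given. Ifi27l2a in FL-WT vs. GC-WT was 0.27, 0.10 and 0.05, and -0.14 to 0.01 with each library left out, the latter without GC-WT mouse 10. In FL-KO vs. GC-KO it was 0.03 with median-of-ratios scaling. In GC-KO vs. GC-WT, Oasl1 was 0.02, 0.02 and 0.23, and Oasl2 was 0.04, 0.08 and 0.11. In FL-KO vs. FL-WT, Irf7 was 0.03, 0.09 and 0.34, Usp18 was 0.23, 0.29 and 0.23, Oasl1 was 0.24 with the trend removed, and Ifit1 was -0.03 without FL-KO mouse 12. In the interaction, Isg15 was 0.00 with median-of-ratios scaling, 0.06 for quantiles and 0.12 without 5 small RNAs, and Rsad2 was 0.01, 0.12 and 0.13. Rsad2 was -0.16 to 0.08 with each library left out, the latter without GC-WT mouse 05, and Oasl1 0.01 with the trend removed.

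With the mouse number as a replicate block, 8 members were lower after flight in the wild type and 9 in the knockout, 0 were higher and 0 passed in the interaction, as without the block. Ground and flight mice share numbers, which the labels tie to no litter or batch. Of 12 pairs, 7 had a correlation of deviations over 0.1 (range -0.03 to 0.27), and 8 of 24 libraries correlated best with their own number, a hint from the data and not from the design. The numbers were not taken as pairs because 5 pairs were at or under 0.1. Since TPM keep no read counts, the precision of members near 1 TPM is unknown.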
